A study of Arabidopsis thaliana with 12 samples.

Results

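The 6 arrays described here compare mature seed of the Arabidopsis thaliana mutant ft-1 with wild-type seed of the accession Landsberg erecta (Ler), both from plants at 20 °C in 16 h days under white fluorescent light. The members were the 3 arrays titled ft-1 and the 3 titled Ler at 20 °C in long days, out of 12 arrays in the series. The genotype label of the mutant arrays is ft-1, in the Ler background and with a single marker per the stock entry, and their source name reads Glabra. The wild type is the NW20 stock. Ripe seed was collected once siliques had opened, its RNA was extracted on Qiagen columns, and biotin-labelled copies were hybridised to Affymetrix ATH1 arrays, 1 sample per array. Whether replicates are separate plants or harvests is not stated in the labels, so the p-values cover the spread among the samples at hand, which could be technical only. FT itself was not analysed here, so the genotype could not be checked and "ft-1" means the arrays with that label. The other 6 arrays, wild-type seed matured at 20 °C in 8 h days (3 arrays) and at 10 °C in 16 h days (3 arrays), entered the same fit and are used below for levels.

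FT encodes the mobile protein that leaves send to the shoot apex in long days to start flowering, and plants without it flower late. FT is also known to act in the mother plant during fruit development, where it links temperature and day length to seed dormancy. A mature Arabidopsis seed holds a dry embryo, a thin living endosperm and a dead seed coat. Its stored messenger RNA is rich in transcripts for late embryogenesis abundant (LEA) proteins, storage proteins, oleosins and small heat shock proteins, which protect the dry cells or supply the seedling. In such bulk seed RNA, fewer cells of a type and less RNA per cell cannot be told apart.

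The values are log2 of the deposited signal, and every change is ft-1 minus wild type on that scale. Of 22746 probe sets, 5300 had a mean of 7 or more in at least 1 of the 2 groups and are called bright here. A probe set can thus count as bright through its higher group alone, which favours large changes. Most listed transcripts that define dry seed were bright: 23 of 30 LEA genes with a named probe set, and 9 of 12 storage, oil body and maturation genes. ft-1 array 2 lay apart from the other mutant arrays. Correlations were taken across the 4708 probe sets with a mean of 7 or more over all 12 arrays. Array 2 correlated with ft-1 arrays 1 and 3 at r = 0.868 and 0.856, whereas those 2 correlated with each other at 0.980. It lay at least 1 log2 unit below both of them for 549 bright probe sets and above both for 197, while the same counts for arrays 1 and 3 were 5 and 7 in either direction. Among wild-type arrays, array 3 was the less similar, at 0.942 and 0.940 against 0.984 between arrays 1 and 2. Summed signals of the 6 arrays ranged from 3564488 to 3856681. Changes are therefore given with all arrays and again without ft-1 array 2.

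With all arrays, 45 probe sets passed limma's test (Benjamini-Hochberg adjusted p under 0.05), 31 higher (0.136%) and 14 lower (0.0615%) in ft-1, in all 0.198% of those tested. Without ft-1 array 2 the count was 65, with 29 higher (0.127%) and 36 lower (0.158%), in all 0.286%. Both fits called 32 of the same probe sets (22 higher, 10 lower), and all 78 called in either fit had the same sign in both. The fits share every array but ft-1 array 2, so this agreement is partly built in. Among bright probe sets, 29 (0.547%) passed with all arrays, of which 22 were higher (0.415%) and 7 lower (0.132%), and 46 (0.868%) without array 2, of which 25 were higher (0.472%) and 21 lower (0.396%). The median change of all probe sets was -0.08 with all arrays and -0.01 without array 2. Centring each array on its own median turned the split of 31 and 14 into 43 higher and 10 lower. The count rests on borrowing the spread across genes and groups: a fit of only these 2 groups called 1 probe set, and a fit without the intensity trend of the variance called 0, with 1870 at an unadjusted p under 0.05. Without wild-type array 3 the count was 85, without ft-1 array 3 it was 66, and leaving out wild-type array 1, wild-type array 2 or ft-1 array 1 gave 13, 14 and 24.

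Small heat shock proteins were 4 of the 10 bright named genes that rose with all arrays. These chaperones bind unfolding proteins and keep them soluble, and many accumulate in maturing seed. Of 19 listed genes, 11 had a named probe set and 7 were bright. With all arrays 4 rose and 0 fell, beside 0.136% and 0.0615% of all probe sets. The same count was reached without array 2, beside 0.127% and 0.158%. All 7 bright members lay above 0 in both fits, as did 47.4% of all bright probe sets with all arrays and 50.3% without array 2, with a median of 1.21 and 0.98, beside a median of -0.03 and 0.00 over all bright probe sets. This list was drawn up with earlier results of these arrays known, so its direction is not independent evidence. At least ATHSP22.0 among the bright members was bright through ft-1 alone, so its place above 0 was partly set by that rule.

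ATHSP22.0 (AT4G10250), a small heat shock protein of the endoplasmic reticulum, had the largest change among bright named genes. It counted as bright only through its ft-1 mean of 7.19, which was 6.61 without array 2, so its rank partly follows from that rule. Wild-type arrays 1 to 3 read 4.05, 4.68 and 4.13, and ft-1 arrays 1 to 3 read 6.66, 8.36 and 6.55. The groups did not overlap, and array 2 was the highest mutant array by over 1 log2 unit. The change was 2.91 ± 0.51 (SE), or 7.49-fold, at an adjusted p of 0.0284 with limma. Without array 2 it was 2.32 ± 0.46, or 5.00-fold, at an adjusted p of 0.0431.

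AT1G53540, a class I cytosolic small heat shock protein, was brighter and tighter. It read 8.62, 8.66 and 8.60 in wild type against 10.67, 11.64 and 10.56 in ft-1. The change was 2.33 ± 0.32 (5.03-fold, adjusted p = 0.00489), and 1.99 ± 0.29 (3.97-fold, adjusted p = 0.00736) without array 2. The 3 wild-type arrays were nearly equal, and every mutant array lay far above them.

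AT1G52560, another small heat shock protein, gave the smallest adjusted p of the bright named genes. Wild type read 7.28, 7.35 and 7.29, and ft-1 read 9.21, 9.98 and 9.02. Its change was 2.10 ± 0.23 (4.28-fold, adjusted p = 0.000916) with all arrays and 1.81 ± 0.19 (3.51-fold, adjusted p = 0.000223) without array 2. The groups lay far apart in every array.

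AT2G29500, a class I member, rose from 7.20, 7.28 and 6.98 in wild type to 8.23, 8.80 and 8.04 in ft-1. The change was 1.21 ± 0.22 (2.31-fold, adjusted p = 0.0336), and 0.98 ± 0.20 (1.98-fold, adjusted p = 0.0475) without array 2. Its groups did not overlap either, though the call was lost when any 1 wild-type array or ft-1 array 1 was left out (adjusted p from 0.0709 to 0.143). ATHSP22.0 also lost its call without any 1 wild-type array (adjusted p from 0.0548 to 0.146).

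The 3 other bright members did not pass. AT5G37670 differed by 1.09 ± 0.25 (adjusted p = 0.0926), AT2G19310 by 0.97 ± 0.21 (adjusted p = 0.0692) and AT1G54050 by 0.63 ± 0.24 (adjusted p = 0.369). Without array 2 the differences were 0.76, 0.73 and 0.81 (adjusted p = 0.14, 0.11 and 0.182). AT5G37670 and AT2G19310 had all mutant arrays above all wild-type arrays, as did AT1G54050 by a narrow margin (lowest mutant 9.77, highest wild type 9.75). Of the 4 dim members, AT5G51440 differed by 1.26 ± 0.33 (adjusted p = 0.153, and 0.281 without array 2) and the other 3 lay below 0, with adjusted p-values from 0.709 to 0.965. Summed over the 11 members on the linear scale, the signal was 4923, 7751 and 4854 in ft-1 against 2049, 2299.9 and 1994 in wild type.

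Among other chaperones and heat shock factors, 6 of 33 listed genes had a named probe set, 2 of them bright, and 0 passed in either fit. HSA32, a heat-stress-associated protein that sustains heat tolerance, read 7.87, 8.25 and 8.64 in wild type and 9.04, 10.66 and 9.82 in ft-1. Its groups did not overlap, but the difference of 1.59 ± 0.34 missed the threshold (adjusted p = 0.0666), as did that of 1.17 ± 0.29 without array 2 (adjusted p = 0.11). AT3G09440, a cytosolic Hsp70, stood at 8.38 to 8.60 in 5 arrays and at 6.58 in ft-1 array 2, so that its difference turned from -0.58 to 0.07 without that array. AT2G20560, a DnaJ-type co-chaperone outside that list, rose from 8.92, 8.57 and 8.77 to 9.78, 10.33 and 9.66, a change of 1.17 ± 0.22 (adjusted p = 0.0365). Without array 2 its change was 0.97 ± 0.20 (adjusted p = 0.0551).

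**Figure D1:**
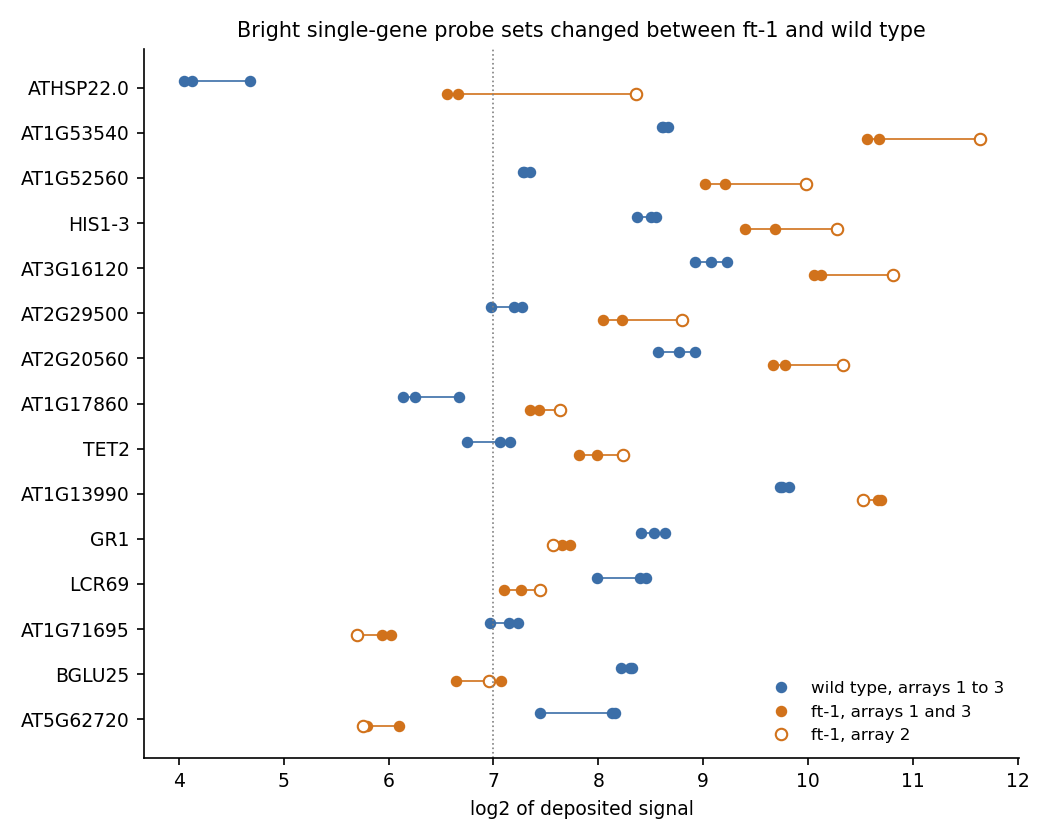
Log2 of the deposited signal (x axis) for the 15 bright single-gene probe sets that passed with all arrays, with 1 point per array and a line over each group's range (blue, wild type; orange, ft-1; open circle, ft-1 array 2; dotted line, the bright threshold of 7). The 2 groups do not overlap for any of the 15 (21.7% of all bright probe sets do not overlap in either direction), and array 2 is the highest mutant array for 9 of the 10 rises.

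Another 5 bright named genes rose with all arrays. HIS1-3 (AT2G18050), a linker histone H1 variant known from drought stress, read 8.50, 8.55 and 8.37 in wild type and 9.69, 10.28 and 9.40 in ft-1. The change was 1.32 ± 0.23 (2.49-fold, adjusted p = 0.0283), and 1.07 ± 0.21 (adjusted p = 0.0374) without array 2. It lost its call without any 1 wild-type array or ft-1 array 1 (adjusted p from 0.0541 to 0.135). The other 7 histone genes with a named probe set did not pass. HTB4, a histone H2B gene, read 8.73, 8.93 and 8.69 in wild type and 8.85 and 8.94 in ft-1 arrays 1 and 3, but 10.40 in array 2, and AT1G06760 (linker histone H1) read 8.37 to 8.88 in wild type, 8.10 and 8.30 in ft-1 arrays 1 and 3, and 10.34 in array 2. Without array 2 the difference of HTB4 went from 0.61 to 0.11, and that of AT1G06760 turned from 0.25 to -0.47.

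AT3G16120, a dynein light chain family gene, read 9.23, 9.07 and 8.92 in wild type and 10.12, 10.81 and 10.06 in ft-1. It rose by 1.25 ± 0.20 (2.39-fold, adjusted p = 0.0182), and by 1.02 ± 0.17 (adjusted p = 0.0144) without array 2. TET2, a tetraspanin membrane protein, rose from 7.16, 7.06 and 6.75 to 7.99, 8.24 and 7.82, by 1.03 ± 0.19 (adjusted p = 0.0396), and its change without array 2 was 0.91 ± 0.19 (adjusted p = 0.0578). In both genes the lowest mutant array lay above the highest wild-type array. TET2 counted as bright only through ft-1 (mean 8.02, against 6.99 in wild type).

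Among the bright named rises, array 2 lay closest to the mean of ft-1 arrays 1 and 3 in AT1G17860 and AT1G13990. The call of AT1G17860 was lost without array 2 all the same. AT1G17860 is a Kunitz-type protease inhibitor, and AT1G13990 has no further name in the annotation used here. AT1G17860 read 6.67, 6.25 and 6.14 in wild type against 7.43, 7.64 and 7.35 in ft-1, a change of 1.12 ± 0.21 (2.18-fold, adjusted p = 0.0396) that was 1.04 ± 0.22 (adjusted p = 0.0578) without array 2. This gene counted as bright only through ft-1 (mean 7.48, against 6.35 in wild type). AT1G13990 read 9.82, 9.73 and 9.76 against 10.70, 10.52 and 10.67. Its change was 0.86 ± 0.16 (1.82-fold, adjusted p = 0.0336), and 0.92 ± 0.16 (adjusted p = 0.0231) without array 2, which was here the lowest mutant array.

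Of the 5 bright named genes that fell, AT5G62720, an integral membrane protein of the HPP family, fell most. It read 8.13, 8.16 and 7.45 in wild type and 5.80, 5.75 and 6.10 in ft-1. The change was -2.03 ± 0.25 (4.08-fold lower, adjusted p = 0.00211), and -1.96 ± 0.27 (3.90-fold lower, adjusted p = 0.00375) without array 2. BGLU25 (AT3G03640), a beta-glucosidase, read 8.32, 8.30 and 8.22 in wild type and 6.64, 6.96 and 7.07 in ft-1. Its change was -1.39 ± 0.18 (2.62-fold lower, adjusted p = 0.00237), and -1.43 ± 0.18 (adjusted p = 0.0025) without array 2. Of 20 beta-glucosidase genes with a named probe set, BGLU25 alone passed in each fit, beside 0.198% and 0.286% of all probe sets.

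AT1G71695, a class III peroxidase, read 7.15, 7.23 and 6.97 in wild type and 5.94, 5.70 and 6.02 in ft-1. It fell by 1.23 (SE 0.18, 2.35-fold lower, adjusted p = 0.0117), and by 1.13 (SE 0.18, adjusted p = 0.0132) without array 2. LCR69 (AT2G02100, also PDF2.2), a small cysteine-rich protein of the plant defensin family, read 8.45, 8.39 and 7.99 against 7.10, 7.44 and 7.27. It fell by 1.01 (SE 0.19, adjusted p = 0.0363), and by 1.09 (SE 0.19, adjusted p = 0.0231) without array 2. GR1 (AT3G24170), a glutathione reductase that recycles oxidised glutathione, read 8.41, 8.53 and 8.64 against 7.65, 7.57 and 7.73, with a change of -0.88 ± 0.17 (1.84-fold lower, adjusted p = 0.045) that was -0.84 ± 0.17 (adjusted p = 0.0513) without array 2. The groups did not overlap for any of these 3, and array 2 lay close to the other mutant arrays.

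LCR69 had relatives that did not follow it. The defensin genes LCR67 and PDF2.1 differed by 0.17 and 0.07 (adjusted p = 0.838 and 0.944), and PDF1.2b, a jasmonate-responsive defensin, by 0.78 (adjusted p = 0.386). Without array 2 the 3 differences were 0.22, 0.02 and 0.66 (adjusted p = 0.835, 0.992 and 0.539). PDF1.2b read 7.49, 8.02 and 9.18 in wild type, and 8.85, 9.25 and 8.93 in ft-1, so that wild-type array 3 lay among the mutant arrays. The metallothionein gene MT1C read 7.62, 7.76 and 7.10 in wild type and 7.03, 6.71 and 6.24 in ft-1 without passing in either fit (-0.84 with all arrays, adjusted p = 0.428, and -0.86 without array 2, adjusted p = 0.459).

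Of the 21 named genes that passed with all arrays, AT1G52560, AT1G53540, AT5G62720 and BGLU25 passed with each of the 6 arrays left out in turn. AT1G17860, GR1 and TUA6 passed in 0 of those 6 fits, with adjusted p-values of 0.0513 to 0.228. The other 14 passed in 1 to 4 of them. Of the 21, 6 were dimmer, with both group means under 7, where single readings are noisier. TUA6, an alpha-tubulin gene, read 3.96, 4.17 and 3.57 in wild type and 1.49, 0.45 and 0.98 in ft-1, a change of -2.92 ± 0.56 (adjusted p = 0.0428) that was -2.66 ± 0.59 (adjusted p = 0.0689) without array 2. Alpha-tubulin genes are close copies of each other, so a probe set may read more than 1 of them, and the other 8 tubulin and actin genes with a named probe set did not pass. AT1G25530, an amino acid transporter family gene, read 6.15, 6.10 and 7.36 against 4.78, 4.66 and 4.77 (change -1.80 ± 0.31, adjusted p = 0.0278, and -1.76 without array 2, adjusted p = 0.033). AT4G33400 read 6.98, 6.97 and 6.00 against 5.10, 4.86 and 5.38 (change -1.54 ± 0.29, adjusted p = 0.0396, and -1.41 without array 2, adjusted p = 0.0578).

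The 3 dimmer rises shared an uneven mutant group. AT1G54070, a dormancy- and auxin-associated family gene, read 5.82, 6.96 and 3.44 in ft-1 against 0.63, -0.22 and 3.19 in wild type (change 4.20 ± 0.81, adjusted p = 0.044). AT3G07820, a pollen-type polygalacturonase, read 7.07, 7.87 and 5.15 against 2.38, 2.93 and 5.12 (change 3.22 ± 0.61, adjusted p = 0.0418). AT2G47050, a pectin methylesterase inhibitor family gene, read 6.60, 7.38 and 4.81 against 2.75, 3.28 and 3.92 (change 2.95 ± 0.49, adjusted p = 0.0221). In all 3, ft-1 array 3 lay within 1 log2 unit of wild-type array 3, while ft-1 arrays 1 and 2 lay far above. Without array 2, AT2G47050 still passed (2.39 ± 0.46, adjusted p = 0.0357), but AT1G54070 (3.42, adjusted p = 0.0893) and AT3G07820 (2.63, adjusted p = 0.0718) did not.

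The pollen list held 2 of these genes. Pollen is no part of a mature seed but can cling to seed and silique debris. Of 29 listed genes, 10 had a named probe set, 1 of them bright. With all arrays 2 rose, beside 0.136% of all probe sets, and 1 rose without array 2, beside 0.127%. The summed signal of the list was 712, 1067 and 236 in ft-1 against 170.0, 207 and 251 in wild type, so that ft-1 array 3 lay within the wild-type range. RALFL26, a pollen peptide signal, read 6.27, 7.01 and 3.10 in ft-1 against 2.10, 0.67 and 4.07 in wild type and did not pass (adjusted p = 0.151, and 0.299 without array 2). The bright member AT5G45880, a pollen Ole e 1-type protein, read 8.09, 8.48 and 6.70 in ft-1 against 6.77, 6.93 and 6.72 in wild type and did not pass either (adjusted p = 0.295, and 0.525 without array 2). The part of pollen material in the pollen-gene rises was not tested.

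Removing array 2 added 33 calls, 7 higher and 26 lower in ft-1. In 25 of the 26 falls, array 2 read above arrays 1 and 3, and in 8 it lay inside or above the wild-type range. For 13 bright single-gene probe sets the call was made only without array 2. The clearest rise was AT1G04770, a sulphur-deficiency-induced family gene, at 6.71, 6.90 and 5.81 in wild type and 8.21 and 8.22 in ft-1 arrays 1 and 3, with array 2 at 6.86. Its change was 1.74 ± 0.26 (3.34-fold, adjusted p = 0.00736) without array 2, and 1.29 ± 0.33 (adjusted p = 0.134) with it. AT5G16980, an oxidoreductase family gene, rose by 1.26 ± 0.24 (adjusted p = 0.0303), from 5.94, 6.17 and 6.52 to 7.52 and 7.43, with array 2 at 6.98, and its difference with all arrays was 1.10 (adjusted p = 0.0692). AT4G19880 (glutathione transferase family), AT5G25210 and AT1G52870 (a peroxisomal-membrane-protein family gene) rose by 1.04, 1.01 and 0.88 without array 2 (adjusted p = 0.0419, 0.0444 and 0.0264). With it they differed by 0.87, 0.83 and 0.78 (adjusted p = 0.118, 0.145 and 0.0666).

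Among the falls seen only without array 2, AT4G37180, a GARP-type transcription factor gene, was the 1 in which array 2 lay lower still. It read 9.02, 9.25 and 9.32 in wild type and 8.20, 6.79 and 8.29 in ft-1, and its change was -0.95 ± 0.16 (adjusted p = 0.0184) without array 2 and -1.43 ± 0.29 (adjusted p = 0.0555) with it. AT4G16490, an armadillo-repeat gene, read 7.80, 7.45 and 7.56 against 5.52 and 6.58, with array 2 at 7.35. Its change was -1.56 ± 0.28 (adjusted p = 0.0264) without array 2, and -1.12 ± 0.34 (adjusted p = 0.236) with it. AT5G49690, a glycosyltransferase gene, read 7.74, 7.87 and 7.74 against 6.64 and 6.83, with array 2 at 7.28, a change of -1.05 ± 0.19 (adjusted p = 0.0271) without array 2 and -0.87 ± 0.21 (adjusted p = 0.105) with it.

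COR27, a gene of cold response and the circadian clock, read 8.42, 8.35 and 8.57 in wild type and 7.73 and 7.66 in ft-1 arrays 1 and 3, with array 2 at 8.26. It fell by 0.75 (SE 0.15, adjusted p = 0.0419) without array 2, and its difference with all arrays was -0.56 (adjusted p = 0.241). AT1G14940, of the major latex protein family, read 11.59, 11.70 and 11.27 against 10.46 and 10.65, with array 2 at 11.48, inside the wild-type range. Its change was -0.97 ± 0.19 (adjusted p = 0.0409) without array 2 and -0.66 ± 0.23 (adjusted p = 0.336) with it. AT5G13030 changed by -1.70 ± 0.31 (adjusted p = 0.0264) without array 2, and by -1.39 (adjusted p = 0.0975) with it, but its other probe set differed by 0.15 with all arrays, so the 2 probe sets of that gene disagree.

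**Figure D2:**
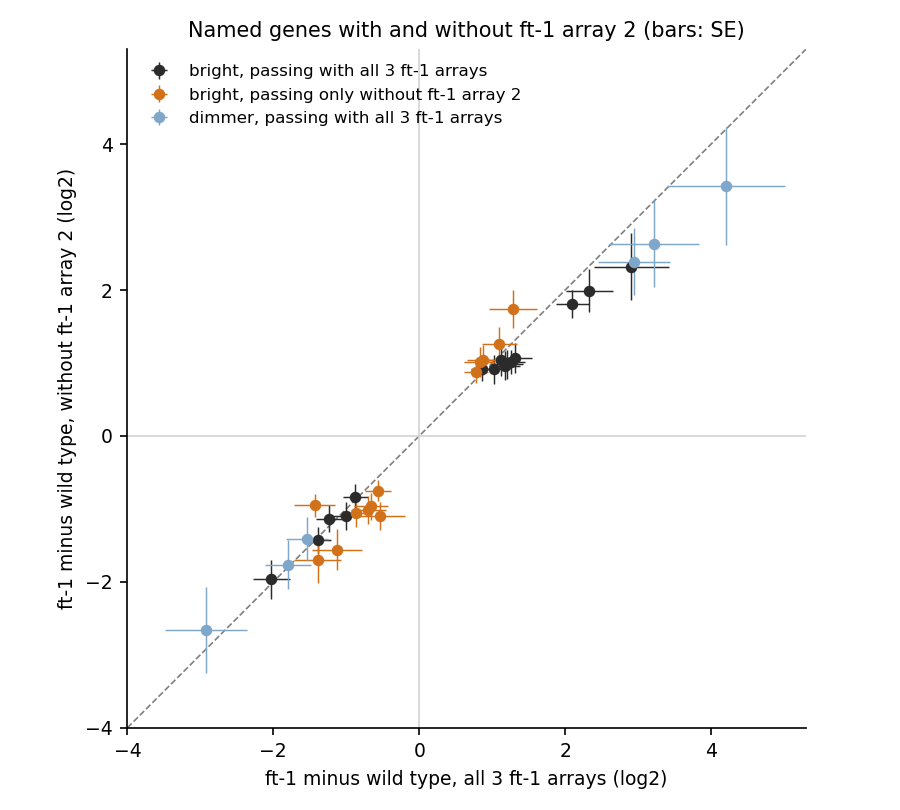
Change between ft-1 and wild type (log2, with SE bars) with all 3 ft-1 arrays (x axis) against the change without ft-1 array 2 (y axis) for the 34 named genes that passed in at least 1 fit, coloured by the fit and brightness class. Every gene has the same sign on both axes, which was a condition of naming for those that passed with all arrays. The 2 fits also share every array but ft-1 array 2. The dashed line marks equal change, with AT1G04770 (1.29 and 1.74) above it and ATHSP22.0 (2.91 and 2.32) below it.

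Over the 78 probe sets called in either fit, 37 had 1 gene, 5 had several and 36 are unnamed here, among them 14 of the 31 rises with all arrays. Among the unnamed ones, 254059_at read 5.91, 5.36 and 5.99 in wild type and 9.58, 11.58 and 9.73 in ft-1. It rose by 4.54 ± 0.43 (adjusted p = 0.000279), more than any bright named gene, and by 3.90 ± 0.32 (adjusted p = 1.99e-05) without array 2. 263231_at read 8.62, 8.75 and 8.79 in wild type and 10.33, 8.96 and 10.20 in ft-1, and passed only without array 2 (1.54 ± 0.15, adjusted p = 0.000211). 253203_at fell by 1.53 (SE 0.26, adjusted p = 0.0221) and 250476_at by 0.99 (SE 0.18, adjusted p = 0.0363), and without array 2 they fell by 1.19 and 0.96 (adjusted p = 0.0201 and 0.0419). These 4 were chosen after their values were seen.

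Listed genes of the programmes that define a dry seed did not pass. In lists of this size a count of 0 is near the background, here and in the paragraphs below, so it says little about the programmes. Of 30 LEA genes with a named probe set 0 passed in either fit, against 0.198% of all probe sets with all arrays, and the median of the 23 bright ones was 0.03 with all arrays and 0.00 without array 2. AT3G02480, an LEA gene, had the smallest p among them, at 12.06, 12.20 and 12.15 in wild type and 11.48, 11.90 and 11.65 in ft-1 (change -0.46, adjusted p = 0.44, and -0.57 without array 2, adjusted p = 0.3). Of 12 storage, oil body and maturation genes 0 passed, and the bright median was 0.13 and 0.08. The cupin-type storage gene AT1G03890 read 11.77, 11.91 and 12.38 against 11.51, 11.54 and 11.71 (change -0.43, adjusted p = 0.467, and -0.41 without array 2, adjusted p = 0.545). The oleosin gene OLEO3 read 10.23, 10.16 and 10.09 in wild type and 10.00, 11.17 and 10.09 in ft-1. Its difference of 0.26 (adjusted p = 0.783) turned to -0.11 (adjusted p = 0.887) without array 2. ICL, the isocitrate lyase of the glyoxylate cycle that turns stored oil into sugar, stood at 12.93, 13.09 and 12.64 in wild type and 12.48, 12.60 and 12.72 in ft-1 (difference -0.29 in both fits, adjusted p = 0.681, and 0.74 without array 2).

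Most regulators of dormancy and germination have no named probe set here, so these lists are thin. Of 25 dormancy and germination regulators 2 were present and 0 passed. AT4G18650, a relative of the dormancy gene DOG1, read 9.43, 10.29 and 9.40 in wild type and 9.76, 10.94 and 9.91 in ft-1, and the groups overlapped. SPT, a factor that controls germination in the cold, read 3.94 to 4.66 in wild type and 4.05 to 4.57 in ft-1. Of 35 abscisic acid genes 2 were present and 0 passed. EEL, a bZIP factor that acts on LEA genes, read 9.03, 9.20 and 9.23 against 8.64, 8.85 and 8.54, and although the groups did not overlap, its difference missed the threshold with all arrays (-0.48 ± 0.20, adjusted p = 0.428) and without array 2 (-0.57 ± 0.20, adjusted p = 0.323).

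For gibberellin and germination genes, 6 of 32 were present, 3 of them bright, and 0 passed. The gibberellin receptor genes GID1A and GID1C differed by 0.06 and -0.01 (adjusted p = 0.952 and 0.997), and SLY1, which marks growth repressors for degradation, differed by -0.05 (adjusted p = 0.98). Without array 2, which read highest of the mutant arrays in all 3, the differences were -0.13, -0.19 and -0.40 (adjusted p = 0.895, 0.886 and 0.754), so that the sign of GID1A turned. ft-1 arrays 1 and 3 then lay below all wild-type arrays for GID1C. The same held for GID1A by a very narrow margin (ft-1 array 3 at 9.260, wild-type array 3 at 9.261). The share of all probe sets that separate in this way is not given here. For flavonoid genes, which make the seed coat tannins, 5 of 26 were present and 0 passed. The flavonol glycosyltransferase gene UGT78D2 differed by -0.02 (adjusted p = 0.986), and by 0.08 (adjusted p = 0.948) without array 2, and the tannin genes DFR and BAN read under 4 in all 6 arrays. Of 18 seed coat and trichome genes 2 were present and 0 passed, and the trichome patterning gene TRY read under 1 in all 6 arrays. Of 13 cold-response genes 4 were present and 0 passed (COR27, described above, is in neither this list nor the clock list), with the dehydrin gene LTI30 at 12.28 to 12.71 in every array. Of 46 flowering, photoperiod and clock genes 6 were present and 0 passed, and GI, a clock gene upstream of FT, read 7.49, 7.25 and 7.42 in wild type and 7.13, 6.67 and 7.16 in ft-1 (change -0.40 ± 0.27, adjusted p = 0.688, and -0.24 ± 0.27 without array 2, adjusted p = 0.865).

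Autophagy genes, which recycle cell contents, lay together without passing. All 9 bright members were above 0 in both fits, as were 47.4% of all bright probe sets with all arrays and 50.3% without array 2. Their median was 0.30 and 0.27, beside -0.03 and 0.00 over all bright probe sets, and 0 of 10 passed. On the median over bright members, wild-type array 3 stood 0.39 above the wild-type mean. ft-1 arrays 1 to 3 stood at 0.41, 0.36 and 0.16, so that the groups overlapped on that measure. ATG8H, for example, read 9.86, 10.09 and 10.71 in wild type and 11.03, 10.61 and 10.10 in ft-1. ATG8C, the 1 member without overlap, read 9.02, 8.92 and 9.36 against 9.70, 9.81 and 9.41. Of all bright probe sets, 10.6% had every mutant array above every wild-type array.

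Cytosolic ribosomal protein genes showed how 1 array moved a whole class. Of 187 listed genes 105 had a named probe set and 85 were bright. Without array 2, 74 of the 85 lay below 0, beside 49.7% of all bright probe sets, with a median of -0.42. In that fit 2 of the 105 fell, beside 0.158% of all probe sets. AT3G09500, for a protein of the large subunit, read 8.91, 8.86 and 8.31 in wild type and 7.62 and 7.57 in ft-1 arrays 1 and 3 (change -1.10 ± 0.19, adjusted p = 0.0231), but 9.29 in array 2 (change with all arrays -0.53, adjusted p = 0.665). AT5G15200, for a protein of the small subunit, read 11.31, 11.07 and 10.60 against 10.00 and 9.97 (change -1.01 ± 0.19, adjusted p = 0.0357), with array 2 at 10.92 (change with all arrays -0.70, adjusted p = 0.308). With all arrays the list's median was -0.16 and 0 passed. Array 2 lay above both arrays 1 and 3 for 79 of the 85, and its median difference from their mean was 0.84. Relative to the wild-type mean, the list stood at -0.46, 0.44 and -0.46 in ft-1 arrays 1 to 3 and at 0.20, 0.15 and -0.36 in wild-type arrays 1 to 3, so wild-type array 3 lay near ft-1 arrays 1 and 3.

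Nuclear genes of photosynthesis served as markers of green tissue. Of 60 listed genes 12 were present, 2 of them bright, and 0 passed. RCA, which activates the carbon-fixing enzyme Rubisco, read 8.52, 8.53 and 5.35 in wild type and 4.89, 5.72 and 5.28 in ft-1. PSAN, a subunit of photosystem I, read 5.23, 4.97 and 2.27 against 1.95, 0.86 and 1.94. In these genes wild-type arrays 1 and 2 alone were high, and wild-type array 3 lay at or near the mutant level. SBPASE, an enzyme of the Calvin cycle, read 5.20, 5.23 and 4.80 against 3.75, 4.01 and 3.90, with wild-type array 3 among the wild-type arrays, and did not pass (change -1.19, adjusted p = 0.174, and -1.25 without array 2, adjusted p = 0.175). In all, 4 of the 12 had every mutant array below every wild-type array, beside 1996 of all 22746 probe sets. Over the 12 genes the medians relative to the wild-type mean were 0.26, 0.54 and -1.03 in wild type and -1.04, -1.32 and -0.75 in ft-1. LHCB4.1, a light-harvesting protein gene, was bright in all 6 arrays (8.59 to 9.37) and overlapped between the groups, with a difference of -0.15 that turned to 0.07 without array 2. Of 69 plastid-encoded genes 0 passed, and the 24 bright ones had a median of -0.11 with all arrays and 0.10 without array 2.

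**Figure D3:**
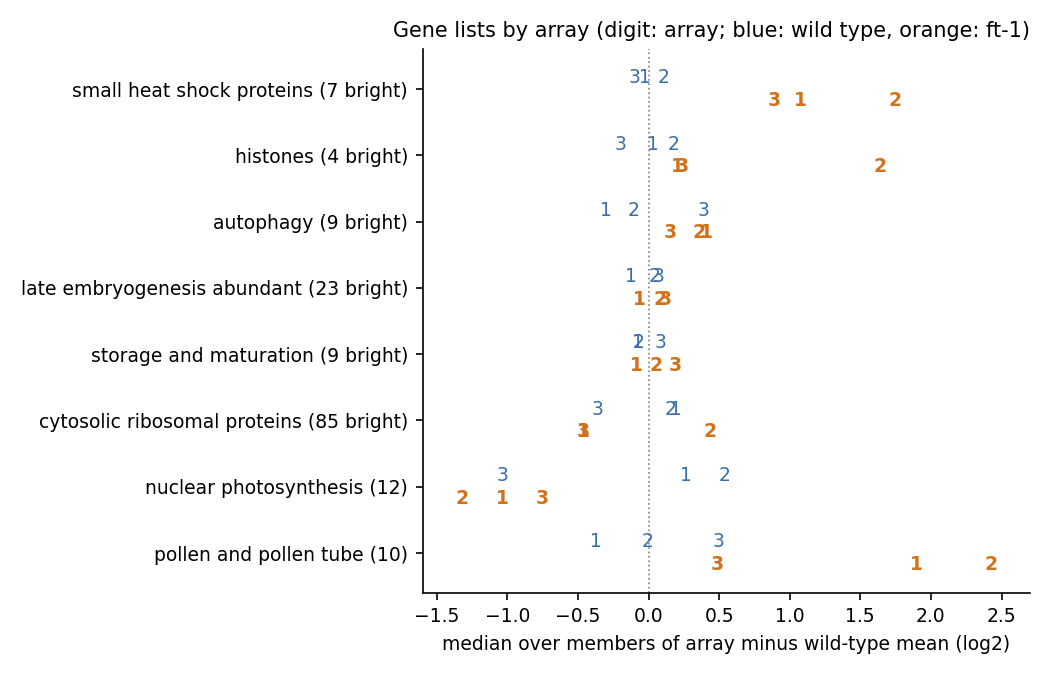
Median over the members of 8 gene lists (bright members for the first 6, all members for photosynthesis and pollen) of each array minus the wild-type mean, on the log2 scale. Each digit is an array number, in blue for wild type and in bold orange for ft-1. Small heat shock proteins lie at 0.89 to 1.74 in all 3 mutant arrays, whereas ribosomal proteins are high in ft-1 array 2 and low in ft-1 arrays 1 and 3 and wild-type array 3.

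Other enzyme and factor families were listed by gene symbol, so members known by locus alone, such as AT4G19880 and AT5G49690 above, are not counted in them. With 0.198% and 0.286% of all probe sets called in the 2 fits, a count of 0 in lists of this size is near the background. Of 27 cell wall genes, 26 genes with a CYP symbol and 14 glutathione transferase genes 0 passed in either fit. The CYP symbols include the cyclophilin gene CYP71 besides cytochrome P450 genes. The same count of 0 held for 12 ubiquitin-conjugating genes and 6 WRKY factor genes. Of 47 glycosyltransferase genes 0 passed with all arrays and 1 fell without array 2. That gene, the dim UGT74D1, read 3.63, 3.17 and 2.59 in wild type and -0.91, 1.56 and -1.50 in ft-1 (change without array 2 -4.34 ± 0.86, adjusted p = 0.0424, and -3.42 with it, adjusted p = 0.125). The expansin-like gene EXLA1 read 9.21, 9.42 and 9.69 in wild type and 10.00, 10.52 and 9.93 in ft-1 without passing (change 0.71, adjusted p = 0.168, and 0.52 without array 2, adjusted p = 0.293). UGT87A2, a glycosyltransferase gene, read 9.00, 9.30 and 9.19 against 9.83, 9.95 and 9.76 (change 0.68, adjusted p = 0.0975, and 0.63 without array 2, adjusted p = 0.128). In both, all mutant arrays lay above all wild-type arrays, as was the case for 10.6% of bright probe sets.

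The bright named genes that set array 2 furthest from ft-1 arrays 1 and 3, outside the wild-type range, included translation genes. AT1G76810, an eIF5B-type translation initiation factor, read 6.81, 6.78 and 8.09 in wild type and 8.23, 4.30 and 7.77 in ft-1. AT1G21160, of the same family, read 6.81, 7.26 and 7.69 against 8.36, 4.67 and 7.38. AT5G40340 read 9.04, 4.80 and 8.86 in ft-1, and AT3G50370 read 8.14, 4.14 and 8.25. Array 2 alone was low in these 4 genes, neither fit called any of them, and without array 2 the sign of all 4 turned from lower to higher. In the other direction AT3G16080, a ribosomal protein gene, read 6.49, 8.42 and 6.60 in ft-1 against 7.91, 7.54 and 6.68 in wild type, and AT3G15357 read 6.54, 8.68 and 6.37 against 6.47, 6.63 and 5.87.

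The probe sets that separated array 2 also separated the other conditions. Of the 549 low in array 2, 96.2% had a lower mean in wild-type seed from short days than from long days, beside 50.4% of all bright probe sets, with a median difference of -0.61. For wild-type seed matured at 10 °C the share was 96.5%, beside 56.0%, with a median of -1.40. Of the 197 high in array 2, 166 were higher in short days and 161 in the cool, with medians of 0.42 and 0.56. These 2 differences share the wild-type arrays from warm long days. The spiked-in poly-A controls, which are added to the RNA before labelling, read 7.87 in array 2 and 5.65 and 6.09 in ft-1 arrays 1 and 3. They read 6.51 to 6.99 in the wild-type arrays, 7.68 to 7.74 in short days and 8.12 to 8.85 at 10 °C. With their level as a covariate, 806 probe sets differed between ft-1 and wild type (309 higher, 497 lower), and their part in the differences was otherwise not tested. The 3′ to 5′ contrast of the actin control, a measure of RNA quality, was 2.65 ± 0.03 (SD, n = 3) in ft-1 and 2.39 ± 0.06 (SD, n = 3) in wild type, with an exact two-sided permutation p of 0.1, the smallest that 3 against 3 arrays allow. The same contrast of GAPDH was 0.67 ± 0.15 against 0.42 ± 0.16 (SD, n = 3, exact permutation p = 0.2), and that of ubiquitin ran the other way, at 0.46 ± 0.06 against 0.53 ± 0.18 (SD, n = 3, exact permutation p = 0.6).

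**Figure D4:**
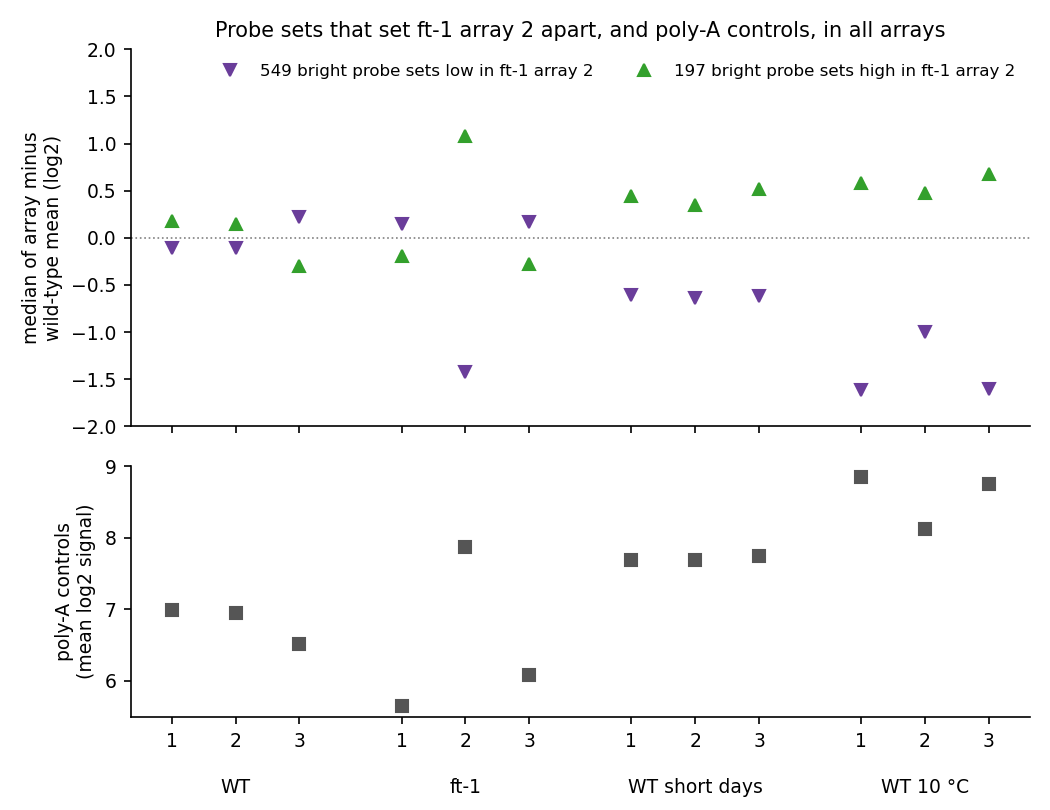
Upper panel: for each of the 12 arrays, the median difference from the wild-type mean (log2) over the 549 bright probe sets at least 1 log2 unit lower (purple) and the 197 at least 1 log2 unit higher (green) in ft-1 array 2 than in ft-1 arrays 1 and 3. Lower panel: mean log2 signal of the 24 poly-A control probe sets. ft-1 array 2 reads -1.42 and 1.08 with controls at 7.87, and ft-1 arrays 1 and 3 read 0.15 and 0.17 on the first set with controls at 5.65 and 6.09.

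Levels in the other 2 groups place the changed genes. Tested directly against wild-type seed from short days, ft-1 differed in 15 probe sets with all arrays (0.0659%) and in 477 without array 2 (2.1%), and against wild-type seed from 10 °C it differed in 2860 (12.6%) and 4846 (21.3%). The small heat shock proteins that rose in ft-1 stood at similar means in short days. ATHSP22.0 averaged 7.19 ± 1.01 (SD, n = 3) in ft-1, 7.27 ± 0.77 in short days and 7.10 at 10 °C, against 4.28 ± 0.34 in warm long days, and the direct difference from short days was -0.08 ± 0.51 (adjusted p = 0.99). For AT1G53540 and AT1G52560 the difference from short days was 0.45 ± 0.32 and 0.31 ± 0.23 (adjusted p = 0.905 and 0.916). AT2G29500 was lower in ft-1 than at 10 °C, by 1.83 (means 8.36 and 10.19, adjusted p = 9.73e-05), whereas AT1G53540 was higher in ft-1 than at 10 °C, by 1.18 (means 10.96 and 9.78, adjusted p = 0.0244, and 0.0518 without array 2). A p that misses the threshold does not show that the groups are alike.

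Of the 21 named genes that passed with all arrays, AT1G17860 alone also differed from short days in that fit. It averaged 7.48 in ft-1, 6.26 in short days, 6.35 in wild type from warm long days and 8.25 at 10 °C, and exceeded short days by 1.21 ± 0.21 (adjusted p = 0.045, and 0.0145 without array 2). The unnamed 250476_at was lower in ft-1 than in short days, by 1.46 (adjusted p = 0.00359, and 0.00146 without array 2). Without array 2, COR27, AT1G14940, AT3G09500, AT4G16490, AT5G15200 and TUA6 were also lower than in short days and AT5G25210 was higher, with adjusted p-values from 0.0049 to 0.0409, and the unnamed 263231_at was higher (adjusted p = 0.00146). HIS1-3 averaged 9.79 in ft-1, 8.75 in short days and 6.58 at 10 °C. Its difference from short days was 1.04 ± 0.23 (adjusted p = 0.157, and 0.0569 without array 2), and it exceeded 10 °C by 3.20 ± 0.23 (adjusted p = 5.32e-07). BGLU25 averaged 6.89 in ft-1, 6.96 in short days and 7.88 at 10 °C, and LCR69 averaged 7.27, 7.41 and 9.60 in that order. Both were lower in ft-1 than at 10 °C, by 0.99 (adjusted p = 0.002) and 2.33 (adjusted p = 1.75e-06).

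**Figure D5:**
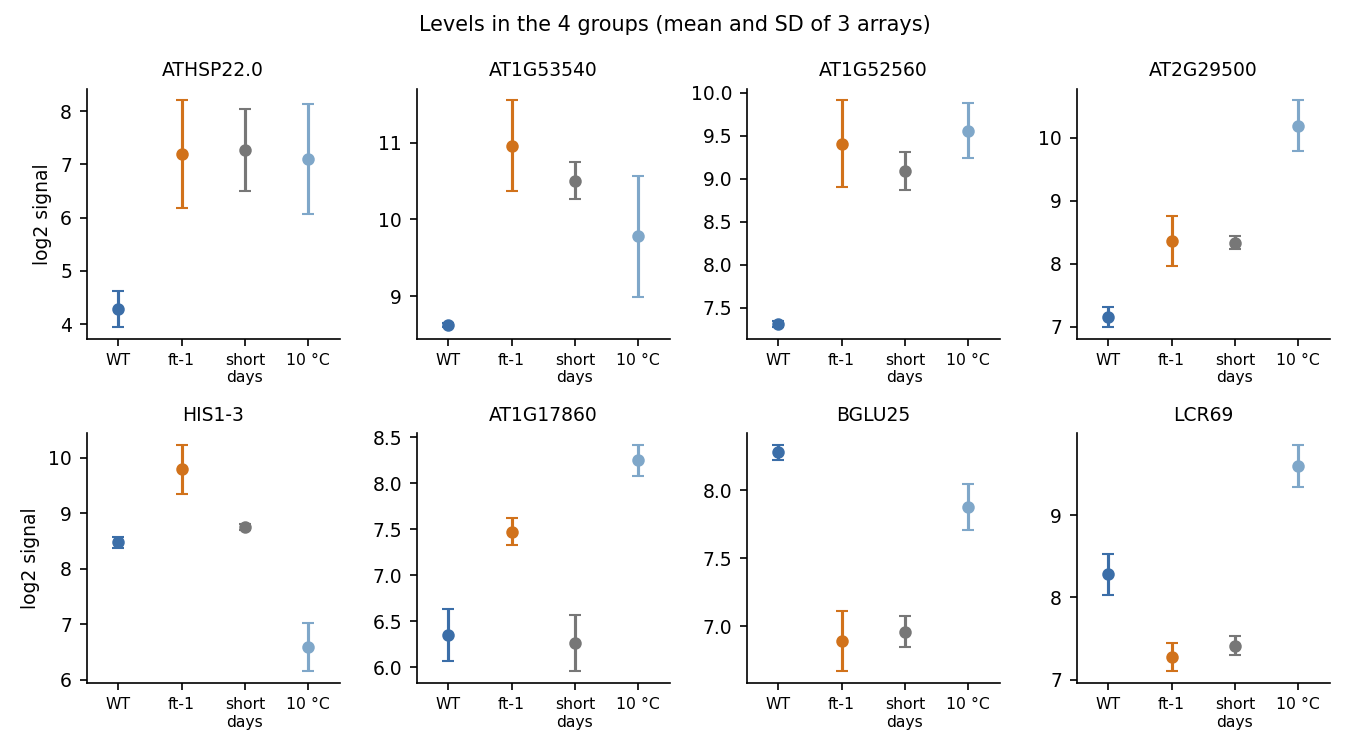
Mean and SD of 3 arrays per group (log2 signal; each panel has its own scale, not starting at 0) for 8 genes changed between ft-1 and wild type (WT) at 20 °C in long days, with wild type in short days and at 10 °C. ATHSP22.0 stands near 7.2 in ft-1, short days and 10 °C and at 4.28 in wild type, and AT1G17860 is at 7.48 in ft-1 and 6.26 in short days.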

How the data were processed

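Affymetrix ATH1 arrays of seed RNA were deposited as 1 table of intensities on a linear scale, made by the authors with MAS5 and GCOS, per the submitters' processing notes. No version is given in the sources used here. Every array has a mean of 100.01 once 2% of its values are trimmed at each end, so a change in total messenger RNA per seed cannot be seen. Scanner files and detection calls were not used here. Of 22810 probe sets, 64 AFFX controls were left out. Low MAS5 values are noisy on a log scale.

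Intensities were log2-transformed as deposited, with no offset or filter. limma 3.58.1 in R 4.3.3 fitted 1 coefficient per group to all 12 arrays (11 without ft-1 array 2), letting the variance prior follow intensity (trend). Two-sided p-values received a Benjamini-Hochberg adjustment over all 22746 probe sets. The fit was also run on simulated data with independent noise and no outlying array. That run does not show how the fit performs with an array such as ft-1 array 2. Genes are named from the platform annotation, updated through TAIR10.1 identifiers: 13513 probe sets have 1 gene, 503 several and 8730 are unnamed here. Roles of loci with no symbol are background knowledge. No coordinates or sequences are given, since no genome was used.

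Members and lists were chosen with earlier results of these data known. Of 32 lists, 4 had no member. The cytosolic ribosomal list by locus was added after seeing the data, because its version by symbol found none. Named genes were up to 12 bright single-gene probe sets each way that passed with all arrays and kept their direction without array 2, up to 12 each way that passed only without array 2 (13 in all), up to 5 dimmer ones each way (6 in all), up to 4 per list by smallest p, and 8 each way that set array 2 apart outside the wild-type range. Alternatives covered normalization, filters, offset, variance prior, array weights, a poly-A covariate, the replicate block and arrays left out.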

Additional observations from a re-analysis of the deposited data

How the results depend on the processing

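The 45 calls with all arrays and the 29 bright ones among them moved by more than 1.5 times under these settings. Array weights gave 453 calls (258 bright), the poly-A level as a covariate 806 (590 bright), an offset of 16 gave 21 (17 bright), a fit of the 2 groups alone 1 (1 bright) and no variance trend 0 (0 bright, with 1870 at an unadjusted p under 0.05). For bright calls alone, the 60th percentile filter gave 47, a filter at an overall mean of 7 gave 45, quantile normalization 46 and scaling on the hybridisation controls 16. Leaving out 1 array gave 13 to 85 calls (11 to 46 bright). Leaving out ft-1 array 2 together with wild-type array 3, chosen after seeing the data, gave 321 (223 bright), and 19 of the 21 named genes passed. Without ft-1 array 2, the count of 65 became 24 in the 2 groups alone and 321 without wild-type array 3 too. The share of calls higher in ft-1 was 68.9%, and it ranged down to 38.3% with the poly-A covariate. The cause of these shifts was not tested.

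Same-numbered arrays of the 2 groups did not deviate together over all probe sets (r = -0.01, 0.06 and 0.03). Over probe sets with a mean of 7 or more, r was -0.36, 0.28 and 0.32 for arrays 1 to 3. Differently numbered arrays gave r from -0.40 to 0.40 there, so the numbers were not taken to pair the samples. The replicate block gave 23 calls (18 bright), and 19 without array 2. None of the 34 named genes that passed in a fit changed direction under any setting run: of their 668 comparisons, 453 kept their side of the threshold, 155 lost it and 60 gained it. Of the 103 named genes that passed in neither fit, 20 turned sign without ft-1 array 2. Probe sets with both means under 3 (8245) gave 0 calls in either fit, and their median SE of 1.06 limits what could be seen there.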
